A study of Mus musculus with 24 samples.

Results

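Negative selection removes developing T cells whose antigen receptor (TCR) binds a self peptide strongly. Within the thymic medulla, epithelial cells that carry the regulator Aire display proteins of peripheral organs, and a thymocyte that recognises one of them receives a strong TCR signal, induces genes such as the Nr4a and Egr factors and the BH3-only killer Bim (Bcl2l11), and dies. Mice of the NOD strain develop autoimmune diabetes.

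Here mRNA was compared between the strains in thymocytes meeting such an antigen, termed S- cells. There were 6 arrays, 3 from B10 and 3 from NOD, of 24 in the whole study, and the members were chosen by their labels alone. All 6 pools came from female mice of 6 to 8 weeks that carried 2 transgenes. The 3A9 TCR recognises a hen egg lysozyme peptide on the class II molecule of the k haplotype, and insHEL places hen egg lysozyme under the insulin promoter, which gives Aire-dependent display in the thymus. B10 mice were the non-autoimmune C57BL10.H2k strain, and NOD mice carried the same H2k haplotype, so both S- groups shared the TCR, the antigen, the MHC and the age and differed in the rest of the genetic background. S- cells were sorted as CD4+CD8lowCD69+ cells bearing the 3A9 clonotype detected by the antibody 1G12, and each array held RNA of a pool of sorted cells. The groups used beside them were S+ cells, the same sorted stage from 3A9 TCR mice without insHEL (3 arrays per strain), and PreS cells, the earlier CD4+CD8+CD69- double positive stage from mice with either genotype (6 arrays per strain). In these sorted pools, a smaller share of cells of a type and less RNA per cell cannot be told apart.

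Values are standardized signals, the deposited array signals brought to a common mean and variance for each array, and a probeset is the group of array probes read as 1 measurement. A difference is the mean log2 signal of NOD minus that of B10, so that 1 is a doubling, and a call is an adjusted p under 0.05 in a limma fit over all 24 arrays with Benjamini-Hochberg adjustment across 12838 probesets. Each gene is given by its probeset of highest mean signal unless another is named. Whether the strains differ in the sequences that the probes read was not examined, so a difference in signal may not be one in mRNA.

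The sorted cells were first checked against 8 lists of cell type markers. Of 13 genes of early CD4 single positive thymocytes 11 were measured, and Cd3d, Cd3g, Cd5, Itm2a and Thy1 were at least 1309 on all 6 arrays. Cd4, a marker of the sort, lay below these on every array. It was the 1 gene of the 11 called, higher in NOD (1.21% of all genes were). The summed signal of the 11 was 12653 to 15898 in B10 and 13016 to 16229 in NOD. Among the markers of other cells, 6 of B cells, 12 of dendritic cells and macrophages, 6 of granulocytes, 2 of erythroid cells, 4 of thymic epithelium and 1 of natural killer cells were measured, and none was called between the strains. Of 6 measured CD8 lineage genes 1 was called, Nkg7, lower in NOD (1.07% of all genes were), and the list summed to 2462 to 3055 in B10 and 1271 to 2726 in NOD. The dendritic cell and macrophage markers summed to 634 to 2687 in B10 and 1153 to 1961 in NOD, and the top value was that of B10 replicate 3, where Lyz2 was 656 against 120 and 77.9 on the other B10 arrays. Aire and Cd69 are not analysed here.

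In NOD S- cells 150 probesets were higher (1.17%) and 148 lower (1.15%) than in B10 S- cells, 298 of 12838 or 2.32% of those tested. By 1 probeset per gene this was 95 genes higher and 84 lower of 7823 (2.29%). The median size among the 298 was 1.59 on the log2 scale, and 94 differed by at least 2. In 294 of the 298 the 3 NOD arrays and the 3 B10 arrays did not overlap, a separation that 13.8% of all probesets showed with NOD lower and 14.7% with NOD higher. In 87 the lower group averaged under 32, a level near the background of the array, so that the size of those differences is uncertain. The number called was 180 without B10 replicate 1, 167 without B10 replicate 2, 193, 165 and 162 without NOD replicates 1, 2 and 3, and 139 with hybridization day as a fixed block. The fit of the 6 S- arrays alone called 550.

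**Figure D1:**
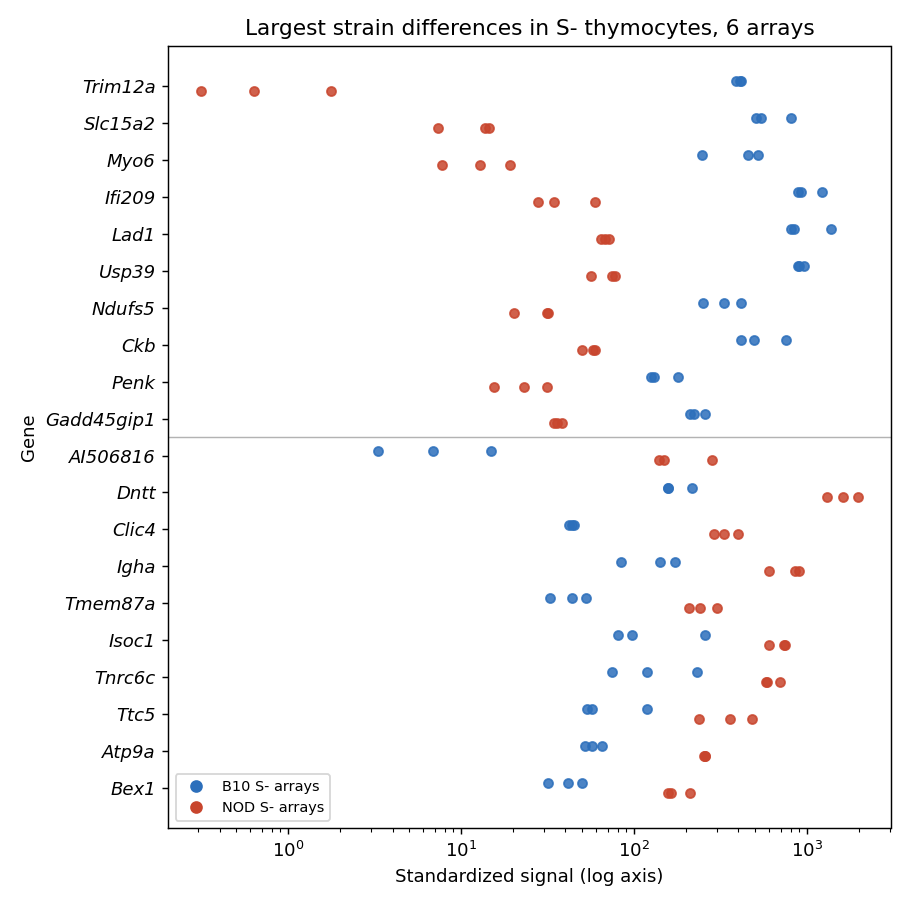
Standardized signal (log axis) on each of the 3 B10 S- arrays (blue) and 3 NOD S- arrays (red) for the 10 genes with the largest called difference in each direction among those of a mean signal of at least 100 in the higher group and no overlap, NOD lower above the grey line and NOD higher below it. The lack of overlap in the 20 genes follows from this choice. Trim12a lies between 386 and 414 in B10 and under 2 in NOD.

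Genes were ranked by their difference among those called whose higher group averaged at least 100 and whose groups did not overlap, a limit that leaves out Tnni1 and Atp6v0e2 (3.72), whose higher groups averaged 51.4 and 43.8. The first was Trim12a, of the tripartite motif family. Its signal was 414, 407 and 386 on the 3 B10 arrays and 1.77, 0.635 and 0.313 on the 3 NOD arrays. The NOD values lie far under background, and with signals under 16 set to 16 the difference was -4.75 (adjusted p = 1.29e-12) in place of -9.15 ± 0.66 (SE, adjusted p = 5.84e-09). Slc15a2, a peptide transporter, read 542, 805 and 506 in B10 and 7.29, 13.7 and 14.5 in NOD (-5.74 ± 0.44). Myo6, an unconventional myosin, read 517, 455 and 247 against 12.9, 19.1 and 7.70 (-4.97 ± 0.41). In each of these the NOD arrays were at or near background.

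Ifi209, of the interferon-inducible Ifi200 family, read 884, 915 and 1222 in B10 and 27.9, 34.3 and 59.4 in NOD (-4.70 ± 0.50, adjusted p = 2.44e-06), while its second probeset, at 351, 349 and 479 against 165, 106 and 230, was not called (-1.29, adjusted p = 0.416). The other genes with NOD lower were Lad1, Usp39, a splicing factor (896, 953 and 887 against 74.4, 77.2 and 55.8), Ndufs5, a subunit of respiratory complex I, Ckb, the brain creatine kinase, Penk, which encodes proenkephalin, and Gadd45gip1, a mitochondrial protein. Their differences ranged from -3.85 for Lad1 to -2.67 for Gadd45gip1. Penk lost its call with day as a fixed block (adjusted p = 0.143) and without NOD replicate 1 (adjusted p = 0.0575).

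Among the genes higher in NOD was Dntt, which encodes terminal deoxynucleotidyl transferase, the enzyme that adds nucleotides at the joints of TCR genes. It read 156, 156 and 216 in B10 and 1604, 1955 and 1293 in NOD (3.20 ± 0.45, adjusted p = 0.000197), and all 3 of its probesets were called in this direction. Clic4, an intracellular chloride channel protein, read 43.8, 41.7 and 44.8 against 290, 329 and 398 (2.95 ± 0.29). The arrays of the strains lay far apart, although 1 further Clic4 probeset was not called (0.69, adjusted p = 0.119).

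The transcript AI506816 read 14.8, 3.29 and 6.86 against 283, 149 and 139 (4.70 ± 0.65), a size that fell to 3.57 with signals under 16 set to 16. Tmem87a, Isoc1, Tnrc6c, of the microRNA silencing complex, Ttc5, Atp9a and Bex1 were higher by 2.12 to 2.55. The calls of Atp9a, Bex1 and Tnrc6c were lost with day as a fixed block (adjusted p = 0.165, 0.242 and 0.171), that of Tnrc6c also without B10 replicate 1 (adjusted p = 0.0553), and that of Isoc1 without B10 replicate 1 or 2 (adjusted p = 0.064 and 0.0551). The other 3 Isoc1 probesets were not called, with differences of -0.06, 0.30 and 0.11, nor was 1 of the other Atp9a probesets (-0.17).

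Igha, the constant region of the IgA heavy chain, was also among them, at 171, 141 and 83.2 in B10 and 890, 599 and 849 in NOD (2.60 ± 0.54, adjusted p = 0.0081). Of the 6 measured B cell markers none was called, 4 had an estimate below 0 and the median was -0.16. Cd79a, Cd79b and Ms4a1 were between 20.8 and 99.6 on all 6 arrays, and Ighm was 1705, 1478 and 2562 in B10 and 1599, 1847 and 1730 in NOD. Cd74 and Vpreb3 went toward higher in NOD, as Igha did (0.66 and 0.55 with signals under 16 set to 16). The cell source of the Igha signal was not tested. With day as a fixed block the call of Igha was lost (adjusted p = 0.0635).

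To ask how far these differences belong to the strains at large, the same probesets were read in PreS and S+ cells, whose arrays are separate from the S- arrays. Of the 298 called at S-, 127 were also called in the same direction in PreS cells, 42.6% of the S- calls and 24% of the 530 PreS calls (4.13% of those tested). In S+ cells 131 were called in the same direction, 44% of the S- calls and 27.6% of the 475 S+ calls (3.7% of those tested). At all 3 stages 91 were called in the same direction, 35 with NOD higher and 56 with NOD lower. The sign of the difference was shared with PreS cells by 258 (86.6%, against 52.2% over all probesets) and with S+ cells by 271 (90.9%, against 61.4%). Of the 20 genes ranked above, 14 were called in the same direction at all 3 stages, and the exceptions were Lad1, Penk, Igha, Isoc1, Tnrc6c and Ttc5.

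**Figure D2:**
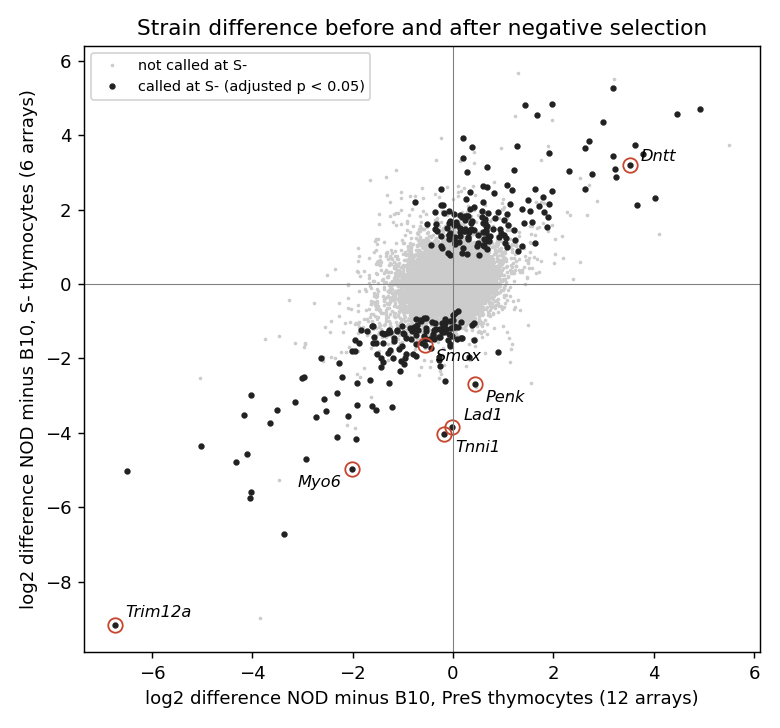
Each point is a probeset, with the log2 difference NOD minus B10 in PreS cells on the x axis and in S- cells on the y axis; black points were called at S-. Trim12a, Dntt and Myo6 differ on both axes, while Lad1, Tnni1 and Penk lie near 0 in PreS cells and between -4.04 and -2.68 in S- cells.

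Another 129 probesets were called at S- and in neither other population, but the difference between stages has to be tested itself. The strain difference at S- departed from that at S+ for 19 probesets, 17 more negative at S- (0.132%) and 2 more positive (0.0156%), 0.148% of those tested and 990 at an unadjusted p under 0.05. Against PreS it departed for 13, 5 more negative (0.0389%) and 8 more positive (0.0623%), 0.101% of those tested and 1581 unadjusted. Of these probesets 4 passed both tests. Of the 129, 3 passed the first and 5 the second test. In data simulated at this size, 50 of 100 probesets with a departure of 2 log2 units were called and 8 of 100 with a departure of 1, whatever the sign of the call. The simulated arrays varied independently, with the same spread in all groups and no effect of day, unlike what these arrays may do. Under those assumptions smaller departures were mostly not detectable.

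The 4 that passed both tests were Lad1, Tnni1, a probeset of Phf21a and 1427932_s_at, which has no gene symbol here and departed from S+ by 3.56. Lad1 encodes ladinin, a protein of anchoring filaments. Its signal was 808, 838 and 1368 in B10 S- cells and 68.1, 71.4 and 64.2 in NOD S- cells. In S+ cells it was 219, 128 and 235 in B10 and 58.7, 58.1 and 67.2 in NOD. In PreS cells it ran from 36.4 to 54.5 with a median of 43.6 in B10, and from 31.6 to 55.7 with a median of 42.5 in NOD. The strains thus overlapped in PreS cells, were apart in S+ cells and farthest apart in S- cells, where NOD stayed near its own S+ level. The difference was -0.01 in PreS, -1.61 in S+ and -3.85 ± 0.26 in S- cells (adjusted p = 2.33e-09), the departure from S+ was -2.23 (adjusted p = 0.0061), and it was called under all 21 alternatives in which it could be fitted.

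Tnni1, the slow skeletal troponin I, lies next to Lad1 on chromosome 1, with 7609 bases and no annotated gene between them in the RefSeq genes of the C57BL/6J mouse; it was singled out after its values were seen. It read 45.0, 46.3 and 62.8 in B10 S- cells and 3.33, 3.11 and 2.84 in NOD S- cells. In the S+ arrays it was at most 5.44 and in the PreS arrays at most 4.97 in either strain. A signal above background was thus present in the B10 S- arrays alone of all groups, and the departure from S+ was -3.66 (adjusted p = 0.000498, called under 19 of 20 alternatives), or -1.79 for the S- difference itself with signals under 16 set to 16.

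The probeset 1418390_at of Phf21a, a chromatin protein, read 44.5, 58.0 and 42.9 in B10 and 148, 131 and 150 in NOD S- cells (1.57, adjusted p = 0.000417), and its strain difference was -0.11 in S+ and 0.01 in PreS cells. Its departure from S+ was 1.69 (adjusted p = 0.0416), called under 11 of 21 alternatives (adjusted p from 0.0054 to 0.176). The other Phf21a probeset was not called. Adgrg3, an adhesion receptor of the G protein-coupled class, read 107, 98.6 and 100.5 in B10 against 278, 307 and 271 in NOD S- cells (1.48, adjusted p = 0.000606), with -0.35 in PreS cells and a departure from PreS of 1.83 (adjusted p = 0.00646). The S- call of Adgrg3 was lost with day as a fixed block (adjusted p = 0.087). Phf21a and Adgrg3 were named after their values were seen.

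Penk passed neither test of departure. It read 126, 129 and 178 in B10 S- cells and 15.4, 31.1 and 23.1 in NOD S- cells, and 19.3 to 41.7 over the 6 S+ arrays, where the difference was 0.40. Its departure from S+ was -3.08 (adjusted p = 0.134) and that from PreS had an adjusted p of 0.068.

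The study drew 10 candidates from these same arrays for a defect of deletion in NOD, so their direction here is not independent evidence. Of these, 9 had a measured gene symbol, 3 were called lower in NOD S- cells, Trim12a, Trim30a and Smox, and 1 higher, Bnip3, against 1.07% and 1.21% of all genes called in those directions. Smox, spermine oxidase of the polyamine pathway, read 593, 554 and 525 in B10 and 165, 152 and 229 in NOD (-1.64 ± 0.22, adjusted p = 7.15e-05), with -0.999 in S+ and -0.55 in PreS cells, both called. Trim30a, an interferon-induced tripartite motif protein, read 1088, 1529 and 646 against 251, 248 and 273 (-1.99 ± 0.44, adjusted p = 0.0136). The arrays of the strains did not overlap for either gene.

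The call of Trim30a was lost without B10 replicate 1 or 2, without NOD replicate 1 or 2 and with day as a fixed block (adjusted p from 0.0516 to 0.236), and its second probeset was not called (-0.13, adjusted p = 0.898). Bnip3, a BH3 protein of mitochondria, read 45.2, 46.5 and 36.9 against 82.0, 97.3 and 63.0 (0.90 ± 0.24, adjusted p = 0.0464). It lost the call under 11 of 22 alternatives, 5 of them the removal of any single array but NOD replicate 3.

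Pdcd1, the inhibitory receptor PD-1, read 332, 380 and 311 in B10 and 184, 179 and 162 in NOD without overlap and missed the threshold (-0.96 ± 0.27, adjusted p = 0.0629). Id1, an inhibitor of E proteins, was at -1.10 (adjusted p = 0.0706, and 0.0362 with signals under 16 set to 16), Pdrg1 at -0.82 (0.0899) and Pdia3, a disulfide isomerase of peptide loading, at -1.34 (0.207). Pdia3 and Pdrg1 were called lower in both S+ and PreS cells. The probeset for Ly6c1 also reads Ly6c2 and is not given.

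Bcl2l11, the killer that deletion of thymocytes depends on, had 5 measured probesets, and they differed. The probeset that stands for the gene by the rule, 1456005_a_at, read 2085, 3040 and 3587 in B10 and 2079, 2738 and 2548 in NOD S- cells, where the strains overlapped (-0.22 ± 0.49, adjusted p = 0.894). The probeset 1435448_at read 1366, 1946 and 3385 against 1701, 1772 and 1777 (-0.25, adjusted p = 0.816), and 1435449_at was at -0.03 (adjusted p = 0.981). None of these 3 separated the strains.

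For 1456006_at the values were 456, 524 and 181 against 111, 190 and 185 (-1.16, adjusted p = 0.191), and B10 replicate 3 lay among the NOD arrays. Only 1426334_a_at was called. It read 73.3, 95.0 and 92.6 in B10 and 25.4, 30.8 and 29.2 in NOD (-1.61 ± 0.27, adjusted p = 0.00118), with 0.03 in S+ and -0.05 in PreS cells. Its departure from S+ was -1.64 (adjusted p = 0.0848), and its call at S- held under 21 of 22 alternatives, the exception being day as a fixed block (adjusted p = 0.2). Which part of the transcript each probeset reads was not analysed here.

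**Figure D3:**
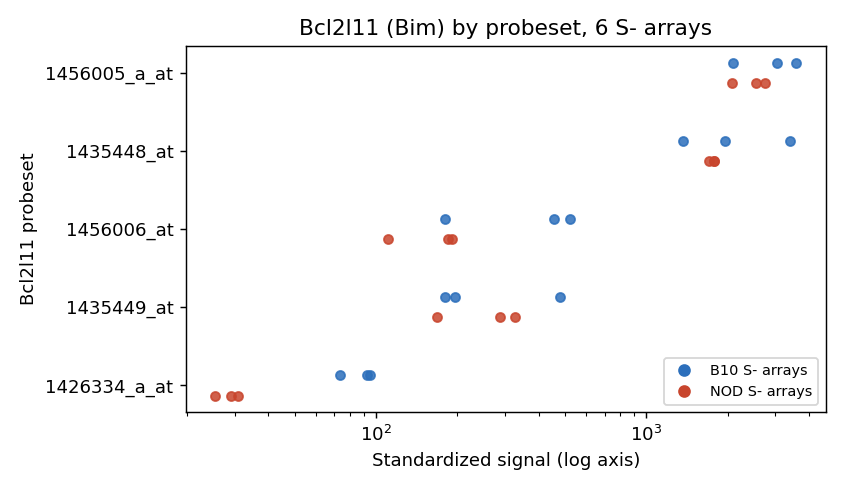
Standardized signal (log axis) of the 5 Bcl2l11 probesets on the 3 B10 S- arrays (blue) and the 3 NOD S- arrays (red). The strains are apart for 1426334_a_at (73.3 to 95.0 against 25.4 to 30.8), and overlap for the other 4.

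Genes that a strong TCR signal induces were taken as a list of 26, of which 21 were measured. None was called in either direction, but with signals under 16 set to 16 Xcl1, Rgs16 and Gadd45b were called lower (adjusted p = 2.6e-06, 0.041 and 0.0436). Of the 21, 16 had an estimate below 0 against 48.8% of all genes, the median was -0.31 against 0.01 over all genes, and in 10 every NOD array lay under every B10 array, against 13.6% of all genes. The 10 were Xcl1, Rgs16, Gadd45b, Il2ra, Tnfrsf4, Pdcd1, Nr4a2, Tnfrsf9, Nr4a1 and Tnfrsf18. Irf4 had all NOD arrays above B10.

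Il2ra, the alpha chain of the interleukin 2 receptor, read 104, 98.9 and 107 in B10 and 47.8, 57.3 and 50.7 in NOD S- cells (-0.998 ± 0.28, adjusted p = 0.0609). It was also called lower in NOD PreS cells (-1.70) and was at 0.09 in S+ cells. Gadd45b, a stress-induced growth arrest gene, read 955, 1218 and 1930 against 391, 808 and 538 (-1.24 ± 0.40, adjusted p = 0.113). The PreS mean was 27.5 in B10 and 19.6 in NOD, so both strains stood far above it in S- cells.

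Tnfrsf4, the costimulatory receptor OX40, read 980, 1330 and 1865 against 699, 645 and 715 (-0.97 ± 0.31, adjusted p = 0.114). Xcl1, a chemokine, read 84.1, 79.7 and 158 against 21.3, 18.8 and 16.2 (-2.45 ± 0.83, adjusted p = 0.137). Rgs16, a regulator of G protein signalling, read 394, 517 and 661 against 139, 201 and 146 (-1.68 ± 0.69, adjusted p = 0.242), and its other probeset, at 101, 161 and 137 against 17.7, 25.2 and 22.2, was called (-2.60, adjusted p = 0.0267), a call that did not survive the removal of any single S- array.

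Other members of the list showed no such separation. Egr2 was at 0.54, Egr1 at 0.12, Egr3 at -0.12, Kit at -0.12 (176, 167 and 191 against 165, 171 and 156) and Ctla4 at -0.03, all with overlapping arrays. In S+ cells 11 of the 21 had an estimate below 0, 1 was called higher (2.15% of all genes were) and the median was -0.01. In PreS cells 18 of the 21 were below 0 (4027 of all 7823 genes were) and the median was -0.29. There 2 were called lower, where 318 of all 12838 probesets were called lower.

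**Figure D4:**
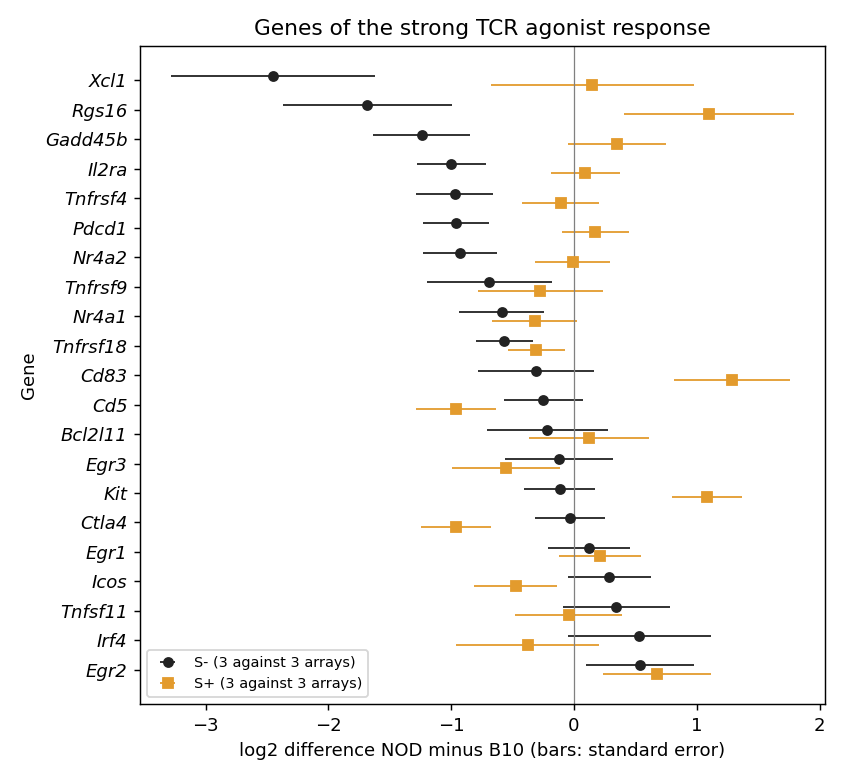
log2 difference NOD minus B10 with its standard error for the 21 genes of the strong TCR agonist response in S- cells (black circles) and S+ cells (orange squares), ordered by the S- value. At S- 16 of 21 lie below 0, from -2.45 for Xcl1 to 0.54 for Egr2, and none was called in the fit plotted, without a floor.

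Genes of the late cell cycle (G2/M) had estimates of nearly uniform sign. Proteins of this list build the spindle, join chromosomes to it and time their separation. Of 40 genes 38 were measured, and 36 had an estimate below 0 in S- cells (against 48.8% of all genes), with a median of -0.53. Of the 38, 1 was called lower and none higher, against 1.07% and 1.21% of all genes. In 16 all NOD arrays lay under all B10 arrays, as in 13.6% of all genes. The called gene was Cenpf, a kinetochore protein, at 362, 255 and 262 in B10 and 86.6, 68.4 and 67.0 in NOD (-1.97 ± 0.52, adjusted p = 0.0467), and its call did not survive the removal of any single S- array.

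In S+ cells the same list ran the other way, with a median of 1.33 and 17 called higher in NOD (2.15% of all genes were), and in PreS cells the median was 0.06. Between S- and S+ cells the strain difference departed for 7 of the 38, all toward lower in NOD at S- (0.192% of all genes). By array, the median level of the list relative to the B10 S- mean was 0.32, -0.08 and -0.12 in B10 S- cells and -0.33, -0.63 and -0.68 in NOD S- cells. It was -1.23, -2.10 and -1.37 in B10 S+ cells and -0.04, -0.59 and -0.14 in NOD S+ cells. The B10 S+ arrays stood apart below the rest. In the same S+ arrays the dendritic cell and macrophage markers were higher in NOD, with all 12 estimates above 0, a median of 1.34, 1 called and a sum of 2142 to 3360 against 591 to 1521 in B10, and the 6 B cell markers had a median of 0.57 with 1 called. Their part in the S+ values was not tested.

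**Figure D5:**
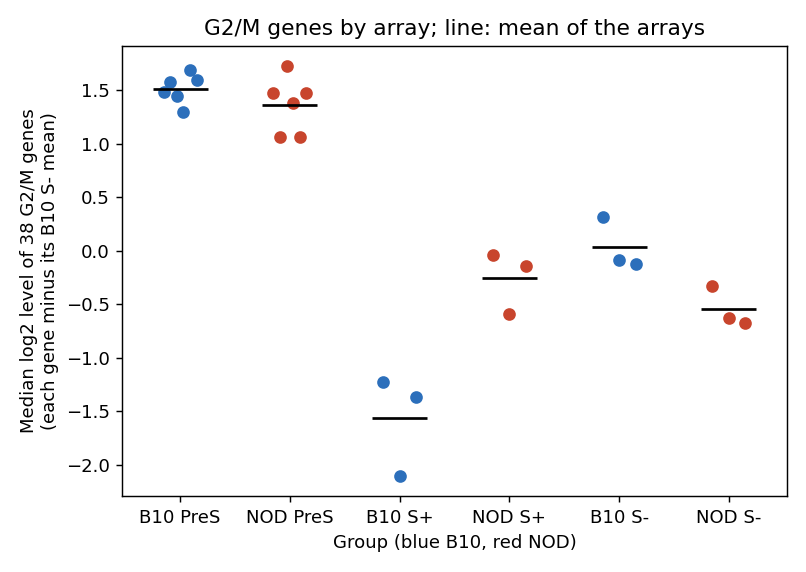
Median log2 level of the 38 G2/M genes on each array, each gene taken relative to its mean in the B10 S- arrays, with B10 in blue, NOD in red and the mean of the arrays as a line. NOD lies below B10 in S- cells (-0.33 to -0.68 against -0.12 to 0.32) and above it in S+ cells (-0.59 to -0.04 against -2.10 to -1.23).

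Mki67, the proliferation antigen Ki-67, read 727, 672 and 732 in B10 S- cells and 410, 304 and 280 in NOD S- cells. In S+ cells it read 50.6, 106 and 128 in B10 and 604, 510 and 415 in NOD. The order of the strains was thus opposite in the 2 populations, and the departure was -3.63 (adjusted p = 0.00426). Cks2, a subunit of cyclin-dependent kinases, read 787, 744 and 690 against 402, 388 and 301 at S- and 201, 110 and 113 against 936, 734 and 429 at S+ (departure -3.33, adjusted p = 0.000707), and its second probeset passed as well.

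Kif2c, a kinesin that depolymerises microtubules, had a departure of -3.60 (adjusted p = 0.000498) by 1 probeset, whereas its other 3 measured probesets, all under 60 on every S- array, were not called. Those of Cenpf (-3.69) and Trip13, a checkpoint ATPase (-1.998), both had an adjusted p of 0.0416 and were called under 11 and 13 of 21 alternatives.

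The 3' to 5' signal ratio differed between the S+ arrays and moves with this comparison. Whether it reflects RNA integrity or the 2 rounds of amplification was not tested. The ratio of the 3' to the 5' signal of the Gapdh and Actb control probesets was 1.99, 3.04 and 5.52 in B10 S- cells and 2.72, 8.71 and 4.70 in NOD S- cells, but 16.2, 2.76 and 2.61 in B10 S+ and 56.4, 35.4 and 3.01 in NOD S+ cells. NOD S+ replicate 3, with a ratio of 3.01, had Mki67 at 415 against at most 128 in B10 S+. Without the 4 arrays of a ratio over 16, which leaves 1 NOD and 2 B10 arrays of S+ cells and assumes that the lone array varies like the other groups, Mki67 had a departure of -2.95 (adjusted p = 0.0698), Cks2 of -2.98 (0.000429), Kif2c of -3.96 (0.0016) and Cenpf of -2.05 (0.741).

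The promoters of a pair of the G2/M genes are shown as background to the list. The motif shares below depend on which genes the list holds and not on the array values. Whether the motifs bear on the strain difference was not tested. Many genes of this phase carry the cell cycle genes homology region, TTTGAA, with CCAAT boxes near it. In RefSeq promoter windows of 300 bases (250 before to 50 after the start, build GRCm38.p6), 33 of the 38 genes had an entry, and 24 (72.7%) held TTTGAA on either strand, against 18.1% of 27025 promoters and 11.9% of the 6405 of genes measured here. CCAAT on either strand was in 27 (81.8%) against 37.9%, and both were in 23 (69.7%) against 7.12%. Of 30 promoters of the G1/S and DNA replication list, 3 (10%) held TTTGAA, 17 (56.7%) held CCAAT and 2 (6.67%) held both. The windows of 2 genes that hold both motifs, Cenpf (chr1:189688037-189688336, minus strand) and Mki67 (chr7:135716330-135716629, minus strand) are printed 5′ to 3′ along the gene, with these motifs and their reverse complements in capitals. They are of the C57BL/6J reference, and the NOD sequence was not analysed here.
Cenpf: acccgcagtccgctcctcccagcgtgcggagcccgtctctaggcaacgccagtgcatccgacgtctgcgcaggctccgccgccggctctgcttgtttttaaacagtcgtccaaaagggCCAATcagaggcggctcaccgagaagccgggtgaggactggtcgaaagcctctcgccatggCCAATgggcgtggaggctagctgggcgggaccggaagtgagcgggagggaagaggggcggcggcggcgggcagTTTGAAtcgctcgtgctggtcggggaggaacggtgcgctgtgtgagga
Mki67: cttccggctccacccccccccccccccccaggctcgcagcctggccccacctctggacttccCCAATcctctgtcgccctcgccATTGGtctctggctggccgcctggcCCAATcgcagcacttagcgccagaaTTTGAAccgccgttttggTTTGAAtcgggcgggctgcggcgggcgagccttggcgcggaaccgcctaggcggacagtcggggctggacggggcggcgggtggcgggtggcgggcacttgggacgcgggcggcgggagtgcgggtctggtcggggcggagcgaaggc

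A match of letters is a description and not a site of binding, and forms of the region other than TTTGAA were not searched. The window of Cenpf held 1 TTTGAA and 2 CCAAT and that of Mki67 2 and 3. Of the 4 other windows read one by one, that of Cks2 held 4 CCAAT and that of Bub1 2, both with no TTTGAA, Kif2c held 1 TTTGAA and no CCAAT, and Trip13 held neither.

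The G1/S and DNA replication list did not share the pattern at S-. Of 35 measured genes 20 had an estimate below 0, none was called and the median was -0.06. In S+ cells its median was 0.76 with 6 called higher (2.15% of all genes).

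Cd4 was called higher in NOD, at 177, 351 and 401 in B10 and 981, 732 and 736 in NOD S- cells (1.47 ± 0.31, adjusted p = 0.00851). It was the 1 call among 24 measured genes of proximal TCR signalling, whose median was -0.01 (1.21% of all genes were called higher). In S+ cells the strains overlapped for Cd4 (0.19), and its departure from S+ had an adjusted p of 0.396. The call was lost without B10 replicate 1 or NOD replicate 1 and with day as a fixed block (adjusted p from 0.0554 to 0.0945). Nkg7, a granule protein in the list of CD8 lineage genes, was lower (190, 231 and 278 against 90.2, 62.2 and 54.7; -1.77, adjusted p = 0.0103), a call lost with day as a fixed block (0.104) and without NOD replicate 2 (0.0532) or 3 (0.0705). Cd8a, at 607, 401 and 424 against 509, 277 and 252, was not called.

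Of the 19 measured genes of the pre-selection double positive stage, Dntt and Cxcr4 were higher, Mns1 was lower and the median was 0.15. Of all genes, 1.21% were called higher and 1.07% lower. Cxcr4, the chemokine receptor of cortical thymocytes, read 59.5, 49.7 and 36.9 against 86.4, 163 and 179 (1.51, adjusted p = 0.0253), and Mns1 75.5, 72.1 and 75.3 against 19.4, 23.4 and 23.3 (-1.76, adjusted p = 0.0182). Both calls were lost without B10 replicate 2, NOD replicate 2 or NOD replicate 3 and with day as a fixed block, that of Cxcr4 also without B10 replicate 3 and that of Mns1 also without B10 replicate 1 or NOD replicate 1 (adjusted p from 0.0604 to 0.328). The single positive maturation list had no call among 25 and a median of 0.07.

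The lists of cell death and survival held 1 call between them. Among 17 death effectors Bnip3 alone was called, higher in NOD (1.21% of all genes were). In this list 12 had an estimate below 0 and the median was -0.22, and Bbc3, another BH3-only killer, was at -0.42 (adjusted p = 0.531). Of 13 survival proteins none was called and the median was 0.11, with Cflar, an inhibitor of death receptor signalling, at 158, 201 and 250 against 390, 310 and 325 (0.77, adjusted p = 0.274). No member was called among 13 NF-kB subunits and inhibitors (median -0.25), 23 early TCR-induced genes (0.12), 20 cytokine receptor chains (0.08), 16 genes of MHC class I processing (-0.24), 8 Ly6 and other GPI-anchored proteins (-0.25) and 5 Gimap GTPases (-0.33). With signals under 16 set to 16, Id1 of the early genes, Il2rb of the receptor chains and Ly6d of the GPI-anchored proteins were called lower.

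Of 10 measured regulatory T cell genes none was called, 8 had an estimate below 0 and the median was -0.46. In 6 all NOD arrays lay under all B10 arrays, as in 13.6% of all genes, and 3 of those, Il2ra, Tnfrsf4 and Tnfrsf18, are also in the strong agonist list. Capg, an actin-capping protein, read 226, 149 and 111 against 31.5, 46.0 and 34.6 (-2.08, adjusted p = 0.17) and was called lower in S+ and PreS cells. With signals under 16 set to 16, Capg and Il2rb were called lower in S- cells too (adjusted p = 3.94e-05 and 0.0426). In PreS cells 9 of the 10 had an estimate below 0 and the median was -0.49. There 3 were called lower, where 318 of all 12838 probesets were called lower. In S+ cells 8 were below 0, 1 was called lower (239 of all 12838 probesets were) and the median was -0.17.

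Interferon-induced genes were mixed. Beside the counts of this paragraph made without a floor, 1.07% of all genes were called lower and 1.21% higher. Of 33, Trim30a was called lower, 18 had an estimate below 0 and the median was -0.11, with Oas1a at -1.25 (adjusted p = 0.114), Bst2 at -1.67 (0.158) and Oas2 at 1.20 (0.186). With signals under 16 set to 16, Oas2 and Cxcl10 were called as well. Among 22 tripartite motif genes Trim12a and Trim30a were called and the median was 0.21. Of 23 endoplasmic reticulum chaperones and stress genes, Trib3, a stress-induced pseudokinase, was higher (34.1, 24.7 and 20.2 against 68.3, 87.0 and 118; 1.79, adjusted p = 0.000573) and Ern1, a sensor of unfolded protein, was lower (56.9, 37.2 and 35.1 against 11.2, 6.58 and 16.3; -1.98, adjusted p = 0.0231). Both were called in the same direction in S+ and PreS cells, and Ern1 lost its call under 6 alternatives, 4 of them the removal of B10 replicate 1 or 2 or NOD replicate 1 or 2.

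Among 15 glycolysis genes the glucose transporter Slc2a3 was higher (368, 253 and 258 against 618, 783 and 682; 1.26, adjusted p = 0.0238) and the enolase Eno3 was lower (390, 504 and 393 against 258, 156 and 172; -1.16, adjusted p = 0.0107), with a list median of -0.03. Of all genes, 1.21% were called higher and 1.07% lower. Eno3 had no strain difference called in S+ or PreS cells (0.09 and 0.10). Slc2a3 kept its call without B10 replicate 1 but lost it without any of the other 5 arrays, and Eno3 lost its own without B10 replicate 2 or NOD replicate 2 or 3. Both were also lost with day as a fixed block (adjusted p = 0.39 and 0.0988), and Slc2a3 with no filter on low signals (0.0566).

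Probesets of the same gene often differed in their call, and an uncalled one could still share the sign of the called one. Of the 298, 149 belonged to a gene with another measured probeset, and in 103 of these no other probeset was called in the same direction; no gene had probesets called in opposite directions. The examples given here were chosen after their values were seen, and strain differences in the sequences under the probes were not examined. One Phgdh probeset, of the serine synthesis enzyme, read 1070, 1051 and 1160 in B10 and 69.0, 43.0 and 51.0 in NOD (-4.36), while the probeset that stands for the gene read 737, 843 and 935 against 635, 608 and 532 (-0.50, adjusted p = 0.38).

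For Rps9, a ribosomal protein, 1 probeset read 2141, 2464 and 3964 against 220, 357 and 224 (-3.40) and the one standing for the gene was at -0.32. For Ets1 1 probeset was higher by 3.75 (28.1, 46.7 and 102 against 649, 869 and 574) and the one standing for the gene was at -0.02. For Lcp2, the adaptor SLP-76, 1 probeset was at -3.08 and the other at 0.25. The called Phgdh, Rps9, Ets1 and Lcp2 probesets were called in the same direction in S+ and PreS cells.

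By chromosome, the share of probesets called ran from 0.656% on chromosome 18 and 0.662% on chromosome 17 to 4.01% on chromosome 6 (25 of 624) and 4.02% on chromosome 4 (30 of 747). Chromosome 7, which holds Trim12a, Trim30a, Bnip3 and Nkg7, had 27 of 802 called (3.37%), and chromosome 1, which holds Lad1, Tnni1, Ifi209, Cenpf and Cxcr4, had 13 of 700 (1.86%).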

How the data were processed

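RNA of sorted pools of thymocytes was amplified in 2 rounds and hybridized to Affymetrix 430A arrays by the study. The deposited intensity values are MAS 5.0 signals that the authors scaled to a trimmed mean of 150 for each array, on a linear scale. After removal of 64 control probesets, 22626 remained, 33 values of 0 were set to 0.1, and log2 signals were brought to a common mean and SD for each array. A probeset entered the fit (12838 did) if 1 or more conditions had no array under a signal of 32.

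A linear model over all 24 arrays (limma 3.58.1, R 4.3.3, eBayes, 18 residual degrees of freedom) gave the strain contrasts in S-, S+ and PreS cells and their differences, which share the S- arrays. The median SE of the S- contrast was 0.34 on the log2 scale, and the number of arrays limits the precision. Figures and tables used Python 3.11.15, pandas 2.3.3 and matplotlib 3.10.9. Of the probesets 20380 had 1 gene symbol, 691 several and 1555 none in the platform annotation, and only the first were named. A gene is given by its probeset of highest mean signal (7823 genes).

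The genes named are, among those with a mean signal of at least 100 in the higher group and no overlap of the S- groups, the 10 of largest called difference each way and the 6 largest called departures from S+, the study's candidates, and up to 4 members of lowest p in each list. The members and lists were chosen with earlier results of these data known. In simulated data of the S- contrast, 32 of 100 probesets changed by 1 log2 unit and 84 of 100 changed by 2 were recovered, with 8 false calls. The simulated arrays varied independently, with the same spread in all groups and no effect of day. Replicates are separate pools by the labels, and same-numbered S- arrays had deviations correlated by 0.16, 0.01 and 0.15, so the numbers were not used as pairs. The arrays fell on 9 hybridization days, and 1 B10 and 1 NOD S- array shared a day. Alternatives in normalization, floor, filter, blocks, weights, covariates and left-out arrays were run. Promoters are from RefSeq, build GRCm38.p6.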

Additional observations from a re-analysis of the deposited data

Results flagged for a closer look

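The strain difference in S- cells departed from that in S+ cells, by a test of the departure itself, for Cenpf (-3.69), Mki67 (-3.63), Kif2c (-3.60), Cks2 (-3.33 and, by its second probeset, -2.35), Trip13 (-1.998), Lad1 (-2.23), Tnni1 (-3.66), the Phf21a probeset 1418390_at (1.69) and the unnamed 1427932_s_at (3.56), all on the log2 scale. It departed from that in PreS cells for Lad1 (-3.83), Tnni1 (-3.87), Phf21a (1.56), 1427932_s_at (2.96), Myo6 (-2.95) and Adgrg3 (1.83). Both tests use the same S- arrays. The departure from S+ was called under 11 of 21 alternatives for Cenpf and Phf21a and 13 of 21 for Trip13. For the cell cycle genes the NOD S+ arrays with 3' to 5' ratios of 56.4 and 35.4 enter the first test, and the part of this ratio in it was not tested beyond the values given above.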

How the results depend on the processing

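All 298 probesets called at S- kept their direction under every alternative in which they were fitted. The number called was 139 with day as a fixed block, 2654 with array weights, 550 from the 6 S- arrays alone, 531 with the 3' to 5' ratio as covariate, 569 without the 4 arrays of a ratio over 16 (chosen after seeing the data), and 162 to 297 with 1 S- array left out. With the replicate number as a block it was 316. At S+, against 475, it was 309 with no filter, 112 with the fixed day block, 2969 with weights and 154 without the high-ratio arrays. At PreS, against 530, it was 237 with the fixed day block.

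Departures from S+ numbered 19, and 11 by the unmoderated t contrast, 38 with MAS 5.0 scaling alone, 37 after quantile normalization, 57 with a floor of 16, 30 with a filter at 64, 31 with the replicate block, 48 with day as a random block, 771 with weights, 52 with the covariate, 31 without the high-ratio arrays and 11 to 20 with 1 S- array left out. Departures from PreS numbered 13, and 21 (quantile), 58 (floor), 6 (no filter), 23 (filter at 64), 29 (filter on S- groups), 31 (random day), 2 (fixed day), 903 (weights), 54 (covariate), 36 (without the high-ratio arrays) and 4 to 14 with 1 S- array left out. Genes called in the lists numbered 13 of 353 measured (3.68%), against 2.29% of all genes. The lists include the candidates that the study drew from these same arrays. The number was 22 (floor), 8 (no filter), 5 (fixed day), 25 (6 arrays), 21 (covariate) and 28 (without the high-ratio arrays). It was 5 to 11 with 1 S- array left out. With weights it was 96, where 2654 of all probesets were called.

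Of the named probesets, 68 were followed across the alternatives, and the sign turned for 4 of these, all uncalled. Changes of sign among the other probesets were not counted. With 1 S- array left out, Bcl2l11 1435448_at ran from -0.55 to 0.10 (above 0 without B10 S- replicate 3), Bcl2l11 1435449_at from -0.29 to 0.42 (above 0 without B10 S- replicate 3 or NOD S- replicate 1) and Trim30a 1451860_a_at from -0.41 to 0.046 (above 0 without NOD S- replicate 2). Bcl2l11 1435449_at was 0.020 with MAS 5.0 scaling alone and 0.38 with weights, and Bcl2l11 1456005_a_at was 0.039 after quantile normalization and 0.063 with the fixed day block. The cause of these changes was not tested.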
